A study of Mus musculus with 17 samples.

Results

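The transcriptomes of kidney cortex in 4 libraries labelled TRACK-ATF4 KO and 5 libraries labelled ATF4 KO were compared, so that the groups differed by the TRACK transgene while both carried the ATF4 knockout label. TRACK stands for transgenic model of cancer of the kidney. The genes described are the protein-coding genes with a mean of at least 1 CPM, the gene count scaled to a common library size, in either group, which left 12729 of the 21637 protein-coding genes and of the 48795 genes in the table. The same table holds 5 wild type (WT) and 3 TRACK libraries, which enter only the check of Atf4 and the last comparison. Both groups descend from a line in which a portion of the Ggt1 promoter, active in proximal tubules, drives a tamoxifen-inducible Cre (CreER) and in which Atf4 is floxed (ATF4 fl/fl). For the ATF4 KO mice the methods give 200 µL of tamoxifen at 20 mg/mL on each of 2 days from 6 weeks of age, and a fast of 16 h in metabolic cages about a month later. These details are not stated separately for the TRACK-ATF4 KO mice. The Ggt1 promoter directs deletion to proximal tubules, so Atf4 transcripts of other cell types are also in these libraries.

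TRACK mice express a constitutively active hypoxia-inducible factor 1α (HIF1α) in proximal tubule cells and serve as a model of clear cell renal cell carcinoma. HIF1α normally is hydroxylated by the EGLN enzymes and degraded when oxygen is present. When stabilised it raises genes of glucose uptake, glycolysis, pH control and collagen modification, together with the genes of its own negative feedback. ATF4 is the transcription factor of the integrated stress response and drives amino acid synthesis and transport genes. Bulk RNA cannot separate a change in the number of cells of a type from a change in RNA per cell.

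Library totals were 58097967 to 64383275 counts in ATF4 KO and 56495462 to 71364561 counts in TRACK-ATF4 KO. Principal component 1 of the 500 most variable genes held 59.8% of the variance and separated the groups, from -21.3 to -12.4 in ATF4 KO and from 20.4 to 22.7 in TRACK-ATF4 KO. The share of counts on processed pseudogenes, intronless gene copies, fell into separate ranges over all 17 libraries, 0.0320 to 0.0380% (kind A) and 0.0574 to 0.0784% (kind B). ATF4 KO 1 and 2 and TRACK-ATF4 KO 1 and 2 were kind A, and the other 5 libraries were kind B. ATF4 KO 4 and 5 stood apart from ATF4 KO 1 to 3 in lipid genes, with values given below. TRACK-ATF4 KO 2 and 3 had a rank correlation of 0.925 across 180 immunoglobulin genes, against 0.492 to 0.678 for the other pairs of that group, although one was kind A and the other kind B. The labels number them as separate samples. The study's methods give 3 to 4 mice per cohort for this sequencing, fewer than the 5 ATF4 KO libraries, so some libraries may share a mouse. Its sequencing summary also repeats some sample names with an added letter, and the labels do not link those names to libraries. P-values measure the spread between libraries and would be too small where libraries share a mouse. All 9 libraries had counts of the Y-linked genes Ddx3y, Eif2s3y, Uty and Kdm5d.

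The targeted gene did not follow the label in the transgenic group. Atf4 was at 72.8, 56.0, 57.7, 62.7 and 76.4 CPM in ATF4 KO 1 to 5 and at 78.8, 92.5, 94.0 and 103 CPM in TRACK-ATF4 KO 1 to 4. Every library labelled TRACK-ATF4 KO was higher than every ATF4 KO library (log2 fold change 0.50 ± 0.12 SE, edgeR adjusted p = 0.0137). Over 23 alternative fits the log2 fold change ranged from 0.41 to 0.59, and Atf4 was not called in 3 of them, within kind B, without ATF4 KO 1 to 3 and with the pairs numbered 2 and 3 of both groups each summed to 1 library. With all 17 libraries scaled together, Atf4 averaged 92.4 CPM in TRACK-ATF4 KO, 83.5 CPM in TRACK and 84.8 CPM in WT, and the ratio to TRACK was 1.11 (exact two-sided permutation test, p = 0.229, n = 4 and 3). In ATF4 KO it was 0.772 of the WT mean (exact permutation test, p = 0.0159, n = 5 and 5). The WT libraries had Xist and no counts of Ddx3y, and their mix of library kinds differed from that of ATF4 KO. The comparisons with WT therefore also hold differences of sex and library kind. Counts are per gene, so reads from the floxed part of Atf4 could not be examined alone. The group is therefore called by its label below, and every direction is drawn from libraries labelled TRACK-ATF4 KO in which loss of Atf4 was not seen. Hif1a averaged 93.7 ± 13.7 CPM (SD, n = 5) in ATF4 KO and 96.7 ± 3.65 CPM (SD, n = 4) in TRACK-ATF4 KO (adjusted p = 0.814), and the transgene was not counted apart from it.

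Of the 12729 genes, 996 (7.82%) were higher and 1219 (9.58%) lower in TRACK-ATF4 KO at an edgeR adjusted p of at most 0.05, and 283 of the increases and 131 of the decreases were at least 2-fold. Every TRACK-ATF4 KO library was above every ATF4 KO library for 1081 genes (8.49%) and below every one for 1277 (10.0%). With the replicate number as a block, 1694 genes rose and 2074 fell. Within kind A 1556 rose and 1561 fell, and within kind B, with 2 against 3 libraries, 200 rose and 98 fell. With TRACK-ATF4 KO 2 and 3 summed to 1 library 697 rose and 816 fell, and with the pairs numbered 2 and 3 of both groups each summed 526 rose and 573 fell. HIF targets, glycolysis and ATF4 targets were called higher more often than the background, and the core clock was called in both directions. Sterol synthesis genes and proximal tubule markers were called mainly downward.

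**Figure D1:**
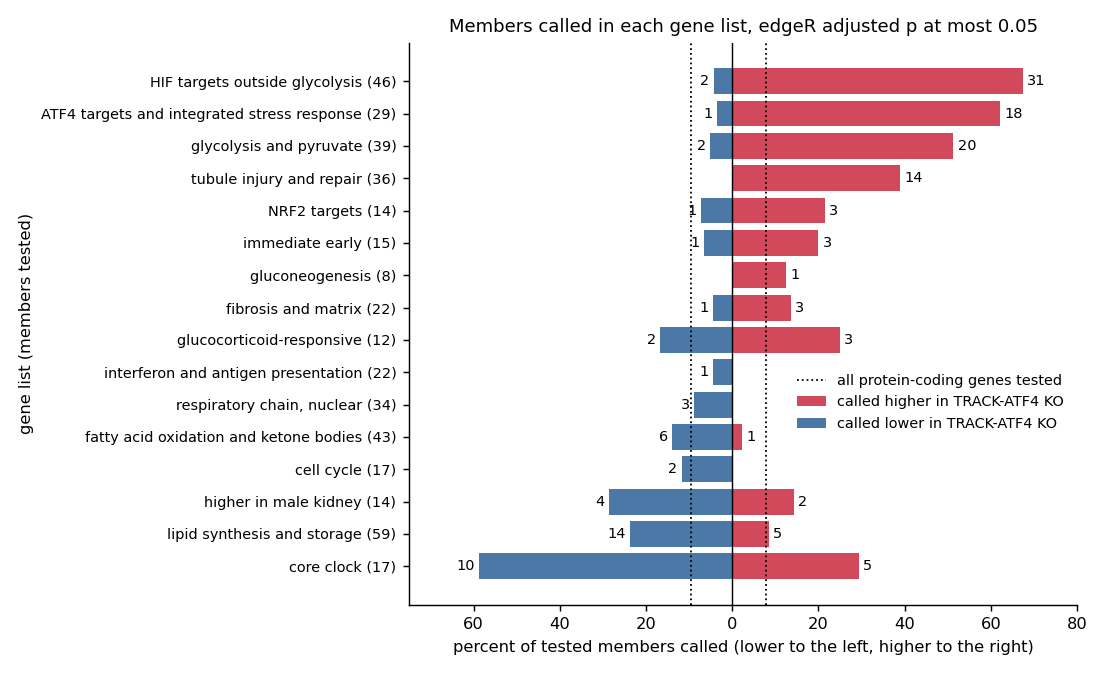
Percent of the tested members of each gene list called lower (left) or higher (right) in TRACK-ATF4 KO (n = 4) than in ATF4 KO (n = 5), with the number called beside each bar and the number tested in parentheses. Dotted lines mark the 9.58% and 7.82% of all protein-coding genes tested; the HIF list reached 31 of 46 and the clock list 10 lower and 5 higher of 17.

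HIF target genes outside glycolysis were higher with the transgene: 31 of the 46 tested members rose, 2 fell and 13 were not called, with a median log2 fold change of 0.77 against -0.01 over all genes tested. Within kind A 37 rose and within kind B 15. Without ATF4 KO 4 and 5 the count was 36, and without ATF4 KO 1 to 3 it was 28. The increases covered every role in the list.

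Of the mitochondrial and stress genes 8 of 13 rose and 2 fell, and the largest log2 fold change of the list, for Cox4i2, was among them. Ndufa4l2, which encodes a respiratory chain subunit paralogue that lowers mitochondrial activity in hypoxia, was at 3.33, 4.35, 3.85, 3.01 and 3.88 CPM in ATF4 KO 1 to 5 and at 87.8, 114, 119 and 100 CPM in TRACK-ATF4 KO 1 to 4. The groups lay far apart, with a log2 fold change of 4.84 ± 0.14 (adjusted p = 1.09e-08). Cox4i2, a hypoxic isoform of a cytochrome c oxidase subunit, averaged 0.239 ± 0.156 CPM (SD, n = 5) against 7.53 ± 0.826 CPM (SD, n = 4), a log2 fold change of 4.97 ± 0.42. Fam162a, a mitochondrial protein induced by HIF1α, rose from 33.4 ± 2.85 to 164 ± 23.6 CPM. Bnip3, a receptor for mitophagy, was at 155, 151, 131, 218 and 208 CPM in ATF4 KO and at 410, 515, 476 and 388 CPM in TRACK-ATF4 KO, with no overlap (log2 fold change 1.37 ± 0.16, adjusted p = 0.000296). Ero1l, an oxidase of disulphide bond formation in the endoplasmic reticulum, was at 32.3, 30.7, 31.8, 35.9 and 32.3 CPM in ATF4 KO and at 155, 177, 171 and 181 CPM in TRACK-ATF4 KO. It had the smallest standard error among these genes, 0.08 on a log2 fold change of 2.39 (adjusted p = 2.73e-08).

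Feedback genes rose together, 10 of the 12 tested. Egln3, the HIF prolyl hydroxylase with the strongest hypoxic induction, was at 16.0, 20.2, 18.2, 33.3 and 27.3 CPM in ATF4 KO and at 187, 224, 216 and 204 CPM in TRACK-ATF4 KO (log2 fold change 3.18 ± 0.20, adjusted p = 3.64e-06). ATF4 KO 4 and 5 had the higher values of their group, still far below the transgenic libraries. Its paralogue Egln1 had a log2 fold change of 0.42. Ankrd37, a small HIF-induced ankyrin repeat protein, rose from 0.789 ± 0.243 to 17.5 ± 3.91 CPM, and the transcriptional corepressor Rcor2 had a log2 fold change of 3.37.

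Of the genes for pH control and collagen modification, 6 of 8 rose. Car9, the membrane carbonic anhydrase used as a marker of clear cell carcinoma, was at 10.7, 19.2, 17.1, 13.9 and 15.4 CPM in ATF4 KO and at 66.7, 87.1, 79.8 and 83.9 CPM in TRACK-ATF4 KO. The groups did not overlap (log2 fold change 2.38 ± 0.15, adjusted p = 3.87e-06). The collagen lysyl hydroxylase Plod2 had a log2 fold change of 2.31 and the prolyl hydroxylases P4ha1 and P4ha2 had 1.21 and 1.45. Car12, another carbonic anhydrase of this group, was not called, at -0.13.

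Secreted factors responded unequally, with 4 of 9 called. Stc2, a glycoprotein hormone, was at 2.75, 3.14, 4.26, 2.64 and 2.81 CPM in ATF4 KO and at 32.1, 32.8, 33.8 and 37.3 CPM in TRACK-ATF4 KO, a log2 fold change of 3.44 ± 0.14 (adjusted p = 1.14e-07). Vegfa, the main angiogenic growth factor, was at 136, 139, 135, 96.6 and 96.9 CPM in ATF4 KO and at 204, 186, 178 and 133 CPM in TRACK-ATF4 KO. TRACK-ATF4 KO 4 lay inside the ATF4 KO range, and the log2 fold change of 0.54 ± 0.16 (adjusted p = 0.0367) was no longer called in 9 of the 23 other fits. Epo, encoding erythropoietin, was below the minimum level.

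A few listed HIF targets went the other way or were not called. The adenylate kinase Ak4 fell from 442 ± 35.1 to 240 ± 25.0 CPM (log2 fold change -0.88 ± 0.10, adjusted p = 0.000226), and Narf fell from 59.1 ± 4.08 to 42.1 ± 2.34 CPM. Ndrg1, a stress-responsive differentiation gene, was at 1461, 1529, 1377, 3132 and 3745 CPM in ATF4 KO and at 4650, 3893, 3574 and 3944 CPM in TRACK-ATF4 KO. ATF4 KO 4 and 5 were near the transgenic libraries, and the log2 fold change of 0.84 ± 0.30 was not called (adjusted p = 0.0799). With the replicate number as a block it was called at 1.19.

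**Figure D2:**
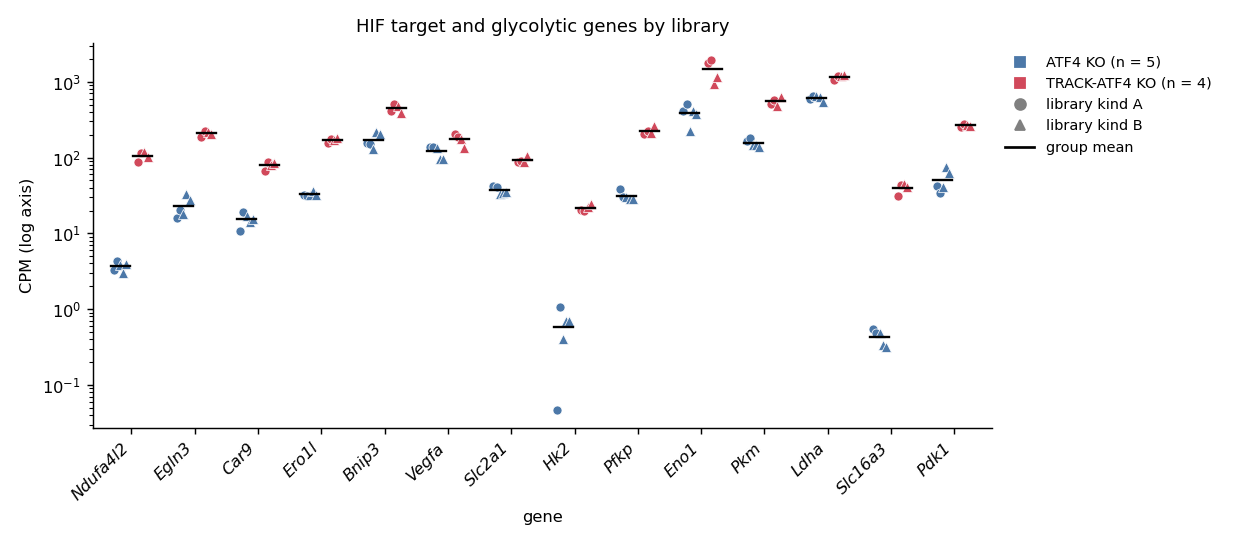
CPM on a log axis for HIF target and glycolytic genes in each ATF4 KO (blue, n = 5) and TRACK-ATF4 KO (red, n = 4) library, with circles for library kind A, triangles for kind B and lines at group means. Slc16a3 rose from 0.315 to 0.541 CPM to 30.7 to 44.7 CPM, while Vegfa overlapped and Eno1 was split by library kind.

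Glycolysis and pyruvate genes were raised from glucose entry to lactate export: 20 of the 39 tested members rose, 2 fell and 17 were not called, with a median log2 fold change of 0.61. Within kind A 22 rose and within kind B 14. Glycolytic enzymes gave 14 of 19 called higher, transport 3 of 4, the regulators of fructose 2,6-bisphosphate and related genes 1 of 5, and pyruvate fate 2 of 11.

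Slc16a3, the lactate exporter MCT4, had the smallest p-value of the list. It was at 0.541, 0.480, 0.485, 0.335 and 0.315 CPM in ATF4 KO and at 30.7, 43.9, 44.7 and 40.5 CPM in TRACK-ATF4 KO. Its log2 fold change was 6.52 ± 0.19 (adjusted p = 1.09e-08), the largest in either list. The gene lies on chromosome 11 at 120948480 to 120960868 (GRCm38, GENCODE). Slc2a1, the glucose transporter GLUT1, was at 41.6, 40.3, 33.0, 33.9 and 35.1 CPM in ATF4 KO and at 87.2, 91.4, 87.0 and 105 CPM in TRACK-ATF4 KO (log2 fold change 1.33 ± 0.10, adjusted p = 8.46e-06). Slc2a3, another glucose transporter, averaged 1.00 and 1.09 CPM and was not called.

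Hexokinase and phosphofructokinase isoforms moved unequally. Hk2, the hexokinase of growing and hypoxic cells, was at 0.0464, 1.06, 0.399, 0.688 and 0.699 CPM in ATF4 KO and at 20.3, 19.9, 22.3 and 24.4 CPM in TRACK-ATF4 KO. ATF4 KO 1 held only 3 counts of it, and the log2 fold change was 5.24 ± 0.46 (adjusted p = 3.16e-05). Hk1 had a log2 fold change of 0.36. Pfkp, the platelet isoform of phosphofructokinase, was at 38.2, 30.5, 30.0, 28.0 and 28.0 CPM in ATF4 KO and at 206, 222, 212 and 263 CPM in TRACK-ATF4 KO (log2 fold change 2.87 ± 0.12, adjusted p = 1.14e-07). Pfkl had 1.21, and the muscle isoform Pfkm had -0.29 and was not called.

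In lower glycolysis Pkm, pyruvate kinase M, was at 165, 184, 145, 148 and 138 CPM in ATF4 KO and at 512, 580, 474 and 633 CPM in TRACK-ATF4 KO (log2 fold change 1.82 ± 0.12, adjusted p = 3.64e-06). Ldha, which makes lactate, was at 590, 640, 642, 635 and 547 CPM in ATF4 KO and at 1047, 1186, 1181 and 1240 CPM in TRACK-ATF4 KO, close to 1.91-fold (log2 fold change 0.93 ± 0.09, adjusted p = 8.05e-05). Pdk1, which blocks pyruvate dehydrogenase, was at 41.6, 34.0, 40.3, 74.5 and 63.2 CPM in ATF4 KO and at 250, 280, 272 and 258 CPM in TRACK-ATF4 KO (log2 fold change 2.39 ± 0.21, adjusted p = 3.71e-05). Each of these genes separated the groups completely. Dlat, the acetyltransferase subunit of pyruvate dehydrogenase, fell from 175 ± 8.30 to 136 ± 10.5 CPM, and the minor phosphoglycerate mutase Pgam2, with overlapping groups, was called at -0.39 on the log2 scale and not called in 12 of the 23 other fits.

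Library kind moved with the level of a pair of glycolytic genes. Pgk1, phosphoglycerate kinase, was at 299 and 333 CPM in the kind A and at 133, 133 and 124 CPM in the kind B libraries of ATF4 KO, and at 688 and 717 CPM against 296 and 302 CPM in those of TRACK-ATF4 KO. It was higher with the transgene within each kind, and the pooled groups overlapped (log2 fold change 1.29 ± 0.39, adjusted p = 0.0422). That call was lost in 8 of the 23 other fits, with log2 fold changes from 0.99 to 1.96 over all of them. Eno1, enolase 1, was at 1782 and 1926 CPM in the kind A and at 939 and 1159 CPM in kind B libraries of TRACK-ATF4 KO, above all 5 ATF4 KO libraries at 222 to 503 CPM. Eno1 was thus higher with the transgene in both kinds.

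The opposite route, gluconeogenesis, gave 1 of 8 members called. Pck2, the mitochondrial phosphoenolpyruvate carboxykinase and also an ATF4 target, rose from 15.1 ± 2.94 to 32.2 ± 3.92 CPM (log2 fold change 1.09 ± 0.14, adjusted p = 0.000607). The kidney isoform Pck1 was at 962 to 1367 CPM in ATF4 KO 1 to 3, at 8564 and 8097 CPM in ATF4 KO 4 and 5 and at 5019 to 6163 CPM in TRACK-ATF4 KO, and was not called (adjusted p = 0.655). Of the nuclear genes for respiratory chain subunits, 3 of 34 were called lower, near the background share, and none higher. Of the 34, 30 had a negative and 4 a positive log2 fold change, with a median of -0.17 against -0.01 over all genes tested. The 3 called were Ndufs1 at -0.39, Sdhb at -0.33 and Uqcrfs1 at -0.29 on the log2 scale, and Sdhb was not called in 4 of the 23 other fits.

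Promoters are shown for the HIF and glycolysis members with the smallest p-values among those found in the promoter table, because those genes rose together. A pair of increased ATF4 targets is added for the stress genes described below. That pair was picked from members whose promoter held the core searched for, and members without it were passed over. RefSeq sequences (GRCm38.p6) of the 250 bases before each transcription start were searched on both strands for ACGTG and GCGTG, the core to which HIF binds, and for TGATGCAA, the composite C/EBP-ATF core. ACGTG can lie within CACGTG, an E-box that clock proteins also bind. Of the 12729 genes 10196 matched a RefSeq promoter by symbol, and 60.6% of those held a HIF core, as did 41.5% of all genes in the promoter table. Of the 31 increased HIF targets 24 matched and 21 of them (87.5%) held a HIF core, and of the 20 increased glycolysis members 20 matched and 17 (85.0%) held it. Over all tested members that matched, called or not, the share was 81.8% for HIF targets (27 of 33), 81.1% for glycolysis (30 of 37) and 86.7% for the core clock (13 of 15). The C/EBP-ATF core was in 5 of 15 matched promoters (33.3%) of increased ATF4 targets and in 0.677% of those of the genes tested. Over all tested ATF4 targets that matched, called or not, it was in 6 of 25 (24.0%). A match describes letters in this window and is no evidence of binding. Bases in capitals are the HIF cores on either strand, at chr11:120948817-120949066 on the plus strand for Slc16a3, and on the minus strand at chr13:6648772-6649021 for Pfkp, chr14:45318573-45318822 for Ero1l and chr11:31370062-31370311 for Stc2.
Slc16a3: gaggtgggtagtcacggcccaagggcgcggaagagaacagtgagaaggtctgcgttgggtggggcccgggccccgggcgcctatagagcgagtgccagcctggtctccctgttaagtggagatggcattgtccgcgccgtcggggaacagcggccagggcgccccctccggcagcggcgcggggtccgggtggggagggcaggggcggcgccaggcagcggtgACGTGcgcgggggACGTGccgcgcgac
Pfkp: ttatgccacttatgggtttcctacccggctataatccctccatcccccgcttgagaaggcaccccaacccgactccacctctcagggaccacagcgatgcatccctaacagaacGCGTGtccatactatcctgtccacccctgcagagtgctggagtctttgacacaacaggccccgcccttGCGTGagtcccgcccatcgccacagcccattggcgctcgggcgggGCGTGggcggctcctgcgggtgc
Ero1l: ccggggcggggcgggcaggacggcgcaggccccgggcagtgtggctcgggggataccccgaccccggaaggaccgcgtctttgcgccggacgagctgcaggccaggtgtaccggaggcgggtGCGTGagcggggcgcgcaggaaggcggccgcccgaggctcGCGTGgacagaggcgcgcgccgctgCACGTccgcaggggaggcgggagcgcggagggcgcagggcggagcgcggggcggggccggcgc
Stc2: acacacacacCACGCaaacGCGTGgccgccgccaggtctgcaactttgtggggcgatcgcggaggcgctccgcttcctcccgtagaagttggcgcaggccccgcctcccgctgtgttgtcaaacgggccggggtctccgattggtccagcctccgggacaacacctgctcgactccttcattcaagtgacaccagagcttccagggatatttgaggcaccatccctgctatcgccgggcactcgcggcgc

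Slc16a3 held 2 cores between 27 and 9 bases before its RefSeq start. Pfkp and Ero1l held 3 each and Stc2 held 2, and none of these lay in an E-box. RefSeq starts can differ from GENCODE gene limits, and the Slc16a3 window lies inside the GENCODE gene given above. Most of the Ero1l window also lies inside its GENCODE gene, at 45283087 to 45318771. In the next pair, both read from the minus strand at chr7:45615491-45615740 for Fgf21 and chr7:126625471-126625720 for Nupr1, capitals mark the C/EBP-ATF core on the opposite strand.
Fgf21: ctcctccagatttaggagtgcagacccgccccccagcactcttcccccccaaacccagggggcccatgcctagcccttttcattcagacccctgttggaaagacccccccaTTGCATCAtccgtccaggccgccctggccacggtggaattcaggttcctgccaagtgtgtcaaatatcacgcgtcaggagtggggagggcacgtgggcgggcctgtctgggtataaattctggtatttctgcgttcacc
Nupr1: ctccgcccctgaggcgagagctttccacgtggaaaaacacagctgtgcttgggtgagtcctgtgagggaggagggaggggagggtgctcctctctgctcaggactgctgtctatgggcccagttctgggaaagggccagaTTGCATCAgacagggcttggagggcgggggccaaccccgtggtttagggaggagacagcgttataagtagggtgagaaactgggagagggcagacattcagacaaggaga

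Of 43 tested genes of fatty acid oxidation and ketone bodies, 1 was higher and 6 were lower. Over all genes tested the shares were 7.82% and 9.58%, and the list had a median log2 fold change of -0.07. With the replicate number as a block 10 fell. The 6 decreases were of Slc27a2, Acsm2, Acsm5, Acads, Acaa1a and Oxct1. Acsm2, a medium-chain acyl-CoA synthetase of the proximal tubule, was at 5229, 5759, 5715, 4413 and 4450 CPM in ATF4 KO and at 2390, 2274, 2170 and 2883 CPM in TRACK-ATF4 KO (log2 fold change -1.07 ± 0.13, adjusted p = 0.0005). Its relative Acsm5 fell from 138 ± 9.94 to 78.4 ± 7.42 CPM. Slc27a2, a very long-chain acyl-CoA synthetase, fell from 4299 ± 458 to 2769 ± 152 CPM, and Oxct1, which activates acetoacetate for use, fell from 1435 ± 213 to 932 ± 20.3 CPM. Acadm, the medium-chain dehydrogenase, rose from 1044 ± 136 to 1442 ± 76.2 CPM (log2 fold change 0.47 ± 0.11, adjusted p = 0.0151), and was not called in 4 of the 23 other fits, among them those within kind B and without ATF4 KO 1 to 3.

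Cyp4a14 and Pdk4, both known targets of the fasting-active fatty acid sensor PPARα, split the ATF4 KO group. Cyp4a14, a fatty acid hydroxylase, was at 86.8, 50.6 and 48.8 CPM in ATF4 KO 1 to 3, at 2532 and 3427 CPM in ATF4 KO 4 and 5, and at 1816, 1656, 1797 and 1880 CPM in TRACK-ATF4 KO. All 4 transgenic libraries were thus nearer to ATF4 KO 4 and 5 and far above ATF4 KO 1 to 3. Pdk4, which spares glucose in fasting, was at 9.47, 15.2 and 17.4 CPM in ATF4 KO 1 to 3, at 220 and 236 CPM in ATF4 KO 4 and 5, and at 325, 293, 309 and 230 CPM in TRACK-ATF4 KO. Over the 9 libraries the edgeR adjusted p was 0.782 for Cyp4a14 and 0.255 for Pdk4. With the replicate number as a block both were called, at log2 fold changes of 3.95 and 3.62, and without ATF4 KO 1 to 3 Cyp4a14 was called lower, at -0.74.

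Which ATF4 KO libraries were used therefore set the direction for several lipid genes. Without ATF4 KO 1 to 3 the list gave 27 decreases in place of 6, and Plin2, the coat protein of lipid droplets, fell by 0.74 on the log2 scale. Plin2 was instead called higher without ATF4 KO 4 and 5 and within kind A. Its log2 fold change reached 1.59 over the 23 other fits. Over all 9 libraries Plin2 was at 64.4, 75.4, 71.5, 371 and 328 CPM in ATF4 KO and at 195, 195, 191 and 257 CPM in TRACK-ATF4 KO, between the ATF4 KO clusters (log2 fold change 0.20 ± 0.53, adjusted p = 0.83). Cpt1a, the entry enzyme for mitochondrial oxidation, was at 464, 553, 502, 916 and 935 CPM in ATF4 KO and at 594, 558, 512 and 636 CPM in TRACK-ATF4 KO (adjusted p = 0.515). The labels do not tell ATF4 KO 1 to 3 from 4 and 5, and the cause of that split was not tested.

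**Figure D3:**
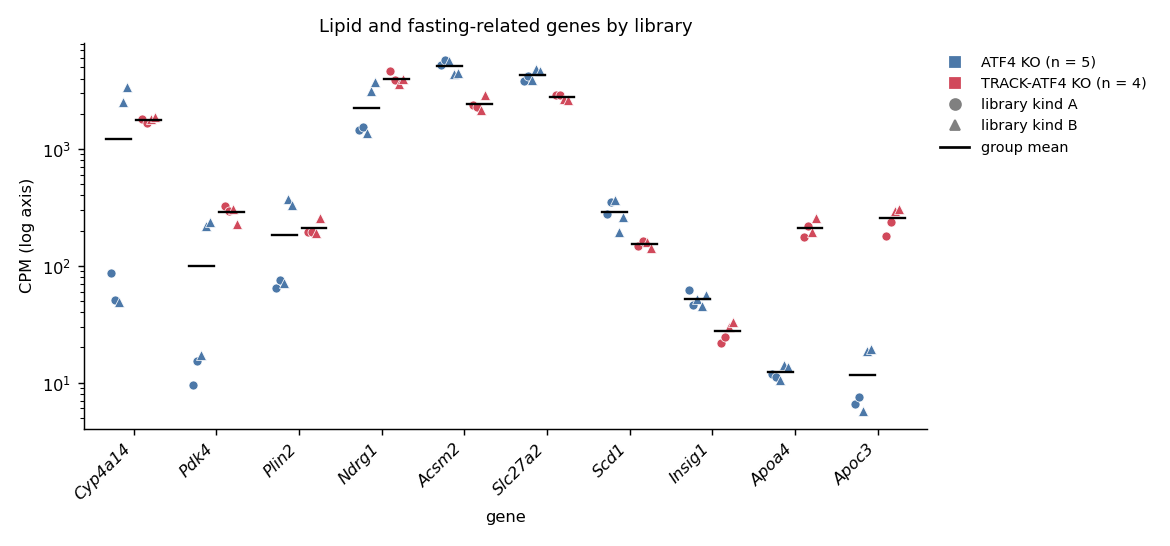
CPM on a log axis for fasting-related, oxidation, sterol and lipoprotein genes in each library, coloured and shaped by group and library kind as in the key. Cyp4a14, Pdk4 and Plin2 show ATF4 KO 4 and 5 apart from ATF4 KO 1 to 3, while Acsm2, Insig1, Apoa4 and Apoc3 separate the groups.

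Lipid synthesis and storage genes were called lower more than higher, 14 against 5 of 59 tested, with a median log2 fold change of -0.26. Sterol synthesis accounted for 7 of the decreases among 21 members and for no increase. Insig1, the sterol sensor that holds back SREBP, was at 61.9, 46.2, 52.0, 45.2 and 56.7 CPM in ATF4 KO and at 22.0, 24.7, 30.1 and 32.9 CPM in TRACK-ATF4 KO (log2 fold change -0.93 ± 0.14, adjusted p = 0.00127). The groups did not overlap, and the mevalonate pathway enzyme Mvd fell from 36.7 ± 4.17 to 22.0 ± 1.23 CPM. Scd1, which makes monounsaturated fatty acids, was at 275, 353, 363, 193 and 262 CPM in ATF4 KO and at 147, 165, 160 and 142 CPM in TRACK-ATF4 KO (log2 fold change -0.92 ± 0.17, adjusted p = 0.0044). Fasn, fatty acid synthase, averaged 76.0 ± 13.0 and 62.7 ± 12.8 CPM and was not called (adjusted p = 0.252). Without ATF4 KO 4 and 5 the list gave 26 decreases and 15 increases, and within kind B it gave 2 of each. With the replicate number as a block 12 rose.

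Apolipoproteins held the largest increases of the list. Apoa4, a chylomicron and high-density lipoprotein component, was at 11.8, 11.2, 10.5, 14.2 and 13.5 CPM in ATF4 KO and at 176, 221, 196 and 254 CPM in TRACK-ATF4 KO (log2 fold change 4.11 ± 0.14, adjusted p = 2.73e-08). Apoc3, an inhibitor of lipoprotein lipase encoded beside it on chromosome 9, was at 6.53, 7.48, 5.70, 18.6 and 19.3 CPM in ATF4 KO and at 181, 236, 294 and 308 CPM in TRACK-ATF4 KO (log2 fold change 4.47 ± 0.41, adjusted p = 4.77e-05). Both separated the groups in every library. Apom, a carrier of sphingosine 1-phosphate, fell from 97.5 ± 5.68 to 64.4 ± 6.99 CPM, and Apoh fell from 9.07 ± 7.21 to 1.98 ± 0.999 CPM. Apoe and Apob averaged 220 and 440 CPM in ATF4 KO and 217 and 501 CPM in TRACK-ATF4 KO and were not called. The summed level of 8 adipocyte markers ranged from 37.9 to 92.2 CPM in ATF4 KO and from 43.1 to 71.0 CPM in TRACK-ATF4 KO. The defining marker Adipoq was at 4.93 and 3.88 CPM in ATF4 KO 2 and 3 and at 0 to 0.105 CPM in the other 7 libraries, and its part in the lipid values was not tested.

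Tubule injury genes rose in part: 14 of 36 tested members were higher, none fell and 22 were not called, with a median log2 fold change of 0.32. Without ATF4 KO 4 and 5 the count was 17, without ATF4 KO 1 to 3 it was 16, and within kind B it was 5. Havcr1, which encodes KIM-1, the standard marker of proximal tubule injury, was at 7.91, 1.74, 3.21, 0.819 and 0.577 CPM in ATF4 KO and at 34.7, 31.2, 34.4 and 25.9 CPM in TRACK-ATF4 KO. The groups did not overlap (log2 fold change 3.46 ± 0.61, adjusted p = 0.00348), and DESeq2 gave the gene no adjusted p-value. Cdkn1a, the p21 cell cycle inhibitor, was at 4.36, 7.33, 5.32, 7.65 and 13.8 CPM in ATF4 KO and at 48.2, 44.6, 47.8 and 74.9 CPM in TRACK-ATF4 KO (log2 fold change 2.81 ± 0.31, adjusted p = 0.000179). C3, the central complement component, rose from 21.5 ± 8.52 to 67.1 ± 3.46 CPM, and the stress cytokine Gdf15 rose from 4.14 ± 0.643 to 9.89 ± 2.23 CPM. Areg, an epidermal growth factor receptor ligand, had no count in any ATF4 KO library and was at 2.75, 1.69, 1.13 and 1.88 CPM in TRACK-ATF4 KO, at least 189-fold higher against a floor of 3 counts over the group. The list median was the same with Areg at that bound.

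Other injury markers were weaker or not called. Lcn2, which encodes the secreted marker NGAL, was at 1.14, 0.645, 0.693, 1.19 and 1.42 CPM in ATF4 KO and at 2.96, 2.00, 1.69 and 3.53 CPM in TRACK-ATF4 KO (log2 fold change 1.32 ± 0.32, adjusted p = 0.0175). It was no longer called without TRACK-ATF4 KO 1, at 1.24, within kind B or without ATF4 KO 1 to 3. Spp1, osteopontin, was at 752, 655, 702, 459 and 403 CPM in ATF4 KO and at 563, 578, 633 and 535 CPM in TRACK-ATF4 KO, inside the ATF4 KO range (adjusted p = 0.902). It was called lower without ATF4 KO 4 and 5, at -0.27, and higher without ATF4 KO 1 to 3, at 0.42. Vcam1, a marker of failed repair, averaged 10.4 and 11.5 CPM and was not called. The inflammatory part of the list gave 1 of 7 called, C3, and Ccl2, Il6 and Tnf were below the minimum level. Of 22 fibrosis and matrix genes 3 rose and 1 fell, beside 7.82% and 9.58% of all genes tested. Of the 22, 11 had a positive and 11 a negative log2 fold change, with a median of 0.006. Tgfb2, a profibrotic cytokine, rose from 2.26 ± 0.962 to 9.16 ± 2.14 CPM, and the lectin Lgals3 rose from 23.1 ± 1.07 to 40.3 ± 1.78 CPM. Collagens Col1a1, Col1a2 and Col3a1 were not called. No cell cycle gene of 17 rose, 11 of them had a positive log2 fold change and the median was 0.45. Tk1 and Mcm6, both of DNA replication, fell by 1.24 and 0.87 on the log2 scale, 2 of 17 beside 9.58% of all genes tested.

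**Figure D4:**
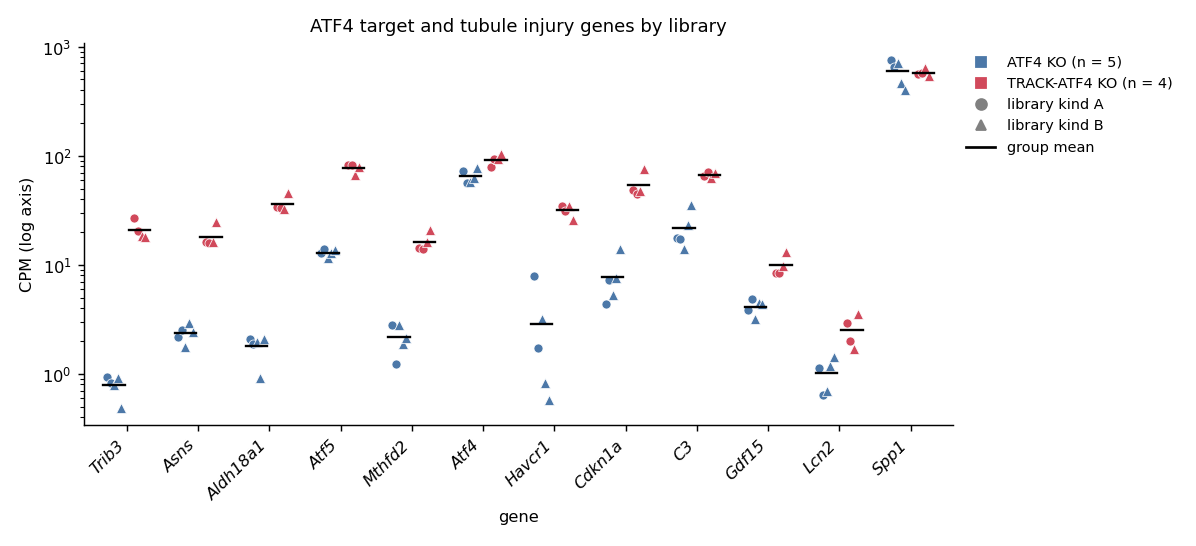
CPM on a log axis for ATF4 target genes, Atf4 itself and tubule injury genes in each library, coloured and shaped by group and library kind as in the key. Trib3, Asns and Aldh18a1 separate the groups widely, Havcr1 varies from 0.577 to 7.91 CPM within ATF4 KO, and Spp1 overlaps.

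ATF4 target genes were higher in the libraries labelled TRACK-ATF4 KO: 18 of 29 tested members rose, 1 fell and 10 were not called, with a median log2 fold change of 0.93. The count was 18 without ATF4 KO 4 and 5, 18 without ATF4 KO 1 to 3 and 12 within kind B. As given above, Atf4 itself was also higher in this group. Trib3, a pseudokinase induced by ATF4, was at 0.928, 0.827, 0.797, 0.912 and 0.490 CPM in ATF4 KO and at 26.7, 20.2, 18.5 and 17.8 CPM in TRACK-ATF4 KO (log2 fold change 4.71 ± 0.20, adjusted p = 1.14e-07). Atf5, a related stress transcription factor, was at 12.7, 13.8, 11.5, 12.8 and 13.6 CPM in ATF4 KO and at 82.5, 81.6, 66.0 and 79.4 CPM in TRACK-ATF4 KO (log2 fold change 2.59 ± 0.09, adjusted p = 3.36e-08). Neither gene showed overlap.

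Amino acid synthesis gave 5 of 9 members called higher. Asns, asparagine synthetase, was at 2.18, 2.51, 1.75, 2.94 and 2.41 CPM in ATF4 KO and at 16.1, 15.9, 16.1 and 24.4 CPM in TRACK-ATF4 KO (log2 fold change 2.94 ± 0.18, adjusted p = 2.75e-06). Aldh18a1, which starts proline synthesis, was at 2.09, 1.89, 1.98, 0.912 and 2.10 CPM in ATF4 KO and at 33.9, 33.5, 32.2 and 45.9 CPM in TRACK-ATF4 KO (log2 fold change 4.34 ± 0.22, adjusted p = 5.84e-07). TRACK-ATF4 KO 4 was the highest library for both. Pycr1, which completes proline synthesis, and Mthfd2, of mitochondrial folate metabolism, had log2 fold changes of 4.43 and 2.91. Psat1 and Psph of serine synthesis and Shmt2 were not called, at 0.39, -0.22 and 0.03, although Phgdh, the first enzyme of that route, was called at 1.73. Fgf21, a hormone of metabolic stress, had 4 counts in all 5 ATF4 KO libraries together and was at 0.648, 0.820, 1.41 and 1.5 CPM in TRACK-ATF4 KO. Herpud1, of endoplasmic reticulum protein degradation, fell from 329 ± 55.8 to 207 ± 23.2 CPM.

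Core clock genes were called in both directions, 10 of 17 lower and 5 higher, with Per1 and Cry1 not called. Arntl, which encodes the activator BMAL1, was at 4.13, 3.11, 3.83, 2.51 and 4.06 CPM in ATF4 KO and at 19.5, 15.4, 14.2 and 19.9 CPM in TRACK-ATF4 KO (log2 fold change 2.29 ± 0.17, adjusted p = 9.3e-06). Its partner gene Npas2 had a log2 fold change of 2.93 ± 0.28. Dbp, a transcription factor driven by BMAL1 and CLOCK, was at 129, 137, 119, 107 and 77.4 CPM in ATF4 KO and at 8.82, 14.8, 13.1 and 9.41 CPM in TRACK-ATF4 KO (log2 fold change -3.30 ± 0.21, adjusted p = 3.87e-06). The repressor Per2 fell by 1.95, Tef by 1.38 and Ciart by 3.15 on the log2 scale. Arntl and Npas2 were thus high and Dbp, Per2, Tef and Ciart low in every TRACK-ATF4 KO library. The TRACK libraries, which also carry the transgene, had Arntl, Npas2 and Dbp near the ATF4 KO levels, as given with the last comparison. The labels give no hour of collection, and its part in these values was not tested.

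**Figure D5:**
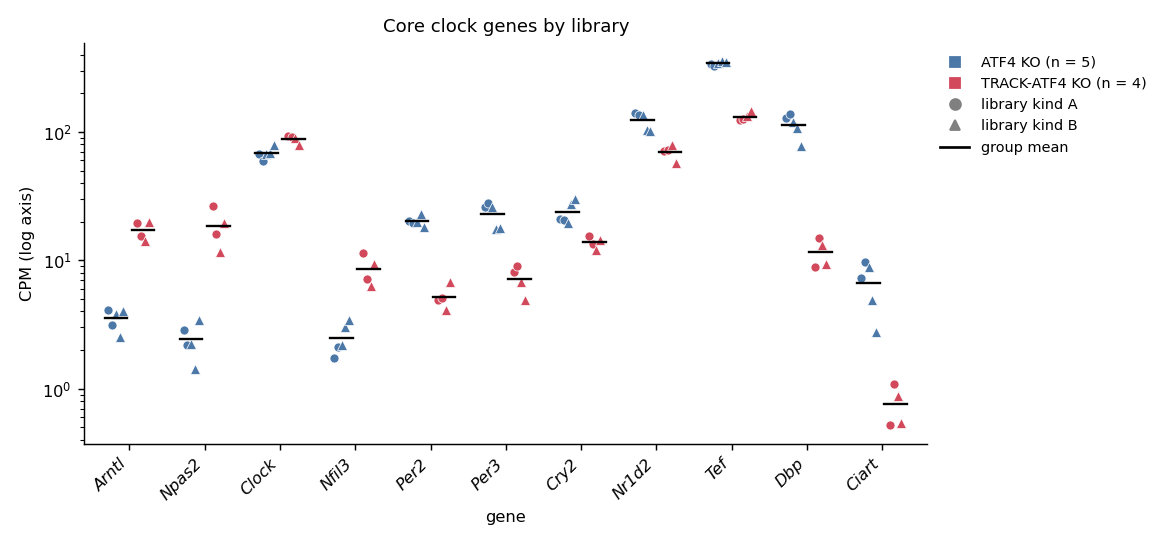
CPM on a log axis for core clock genes in each library, coloured and shaped by group and library kind as in the key. Arntl, Npas2 and Nfil3 were higher and Per2, Per3, Tef, Dbp and Ciart lower in all 4 TRACK-ATF4 KO libraries than in all 5 ATF4 KO libraries, and Clock overlapped.

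The cortex origin of the libraries was checked with cell type markers, and the proximal tubule markers were abundant in all 9. Of 10 markers of all proximal tubule segments 6 fell and none rose, with summed levels of 29787 to 48168 CPM in ATF4 KO and 24768 to 37530 CPM in TRACK-ATF4 KO. Slc34a1, the main renal phosphate transporter, was at 4028, 4960, 4254, 2986 and 2870 CPM in ATF4 KO and at 1576, 1467, 1267 and 1623 CPM in TRACK-ATF4 KO (log2 fold change -1.36 ± 0.18, adjusted p = 0.000592). Miox, which breaks down inositol, fell from 1528 ± 472 to 618 ± 29.3 CPM, and Hnf4a, the transcription factor of proximal tubule identity, fell from 944 ± 72.6 to 676 ± 41.8 CPM. Ggt1, whose promoter drives CreER, fell from 924 ± 92.6 to 675 ± 71.4 CPM but was not called in 4 of the 23 other fits, and Kap, the most abundant of the markers, was not called. Of 7 markers of segments S1 and S2 4 fell, and their sum was 2693 to 3381 CPM in ATF4 KO and 1795 to 2086 CPM in TRACK-ATF4 KO. Of 8 S3 markers 1 rose and none fell, beside 7.82% and 9.58% of all genes tested, with sums of 3022 to 4920 and 3508 to 3731 CPM. Within kind B, with 2 against 3 libraries, none of the 10 markers of all segments was called.

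Markers of other cell types were counted in the same way, beside 7.82% higher and 9.58% lower over all genes tested. Of 8 endothelial markers 5 rose, among them Pecam1 at a log2 fold change of 0.48, and their sums were 472 to 678 and 678 to 777 CPM. That count fell to 1 without TRACK-ATF4 KO 1, to 1 without TRACK-ATF4 KO 2 and to 0 with both pairs summed. Thick ascending limb markers gave 1 of 6 higher, Cldn10, podocyte markers 1 of 6, and connecting tubule and principal cell markers 1 of 7, Scnn1b. The marker sums of each of these cell types overlapped between the groups. Thin limb markers gave 1 of 5 lower, Aqp1, which the proximal tubule also expresses and which averaged 978 and 636 CPM, and their sums of 983 to 1074 and 655 to 770 CPM did not overlap. Of 5 adipocyte markers tested 1 was called lower, Adipoq at -6.72, whose values in the libraries are given above, and the B cell marker Cd79a rose among T, B and NK cell markers. No marker of the distal convoluted tubule, intercalated cells, fibroblasts and mural cells, macrophages, red cells or urothelium was called. Neutrophil, muscle and adrenal cortex markers were all below the minimum level. The part of these marker values in the gene groups above was not tested.

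The largest increases were in genes with few or no counts in ATF4 KO. 2610528A11Rik was at 0 to 0.149 CPM in ATF4 KO and at 71.0, 84.3, 88.2 and 69.3 CPM in TRACK-ATF4 KO (log2 fold change 10.27 ± 0.32, adjusted p = 2.12e-08). Mgarp, a mitochondrial protein that responds to hypoxia, had 3 counts in ATF4 KO together and 9.01, 13.5, 16.3 and 16.1 CPM in TRACK-ATF4 KO, a ratio of 1441 with a 95% counting interval of 493 to 6990. Muc2, the gel-forming mucin of the gut, had 1 count in ATF4 KO and 24.8, 17.7, 12.8 and 7.58 CPM in TRACK-ATF4 KO, and Grin1, a subunit of the NMDA glutamate receptor, averaged 0.0163 and 15.6 CPM. Zfp92 and Ostn showed the same pattern. Aire, Crisp1, Vmn2r3, Ppp1r3g and Fut1 had no count in ATF4 KO and were at least 281-, 174-, 170-, 139- and 112-fold higher. Counting intervals and floors cover counting error only.

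Among genes called lower whose groups did not overlap, the largest decreases were outside the gene lists apart from Dbp and Ciart. Pzp, a protease inhibitor, was at 56.1, 88.9, 81.2, 84.5 and 72.5 CPM in ATF4 KO and at 4.95, 4.75, 3.31 and 13.7 CPM in TRACK-ATF4 KO (log2 fold change -3.52 ± 0.39, adjusted p = 0.000197). Tsku, a secreted regulator of growth factors, fell from 27.7 ± 7.87 to 3.73 ± 0.659 CPM. Hpd, of tyrosine breakdown, was at 36.8, 41.7, 35.4, 109 and 183 CPM in ATF4 KO and at 11.7, 9.62, 7.05 and 14.3 CPM in TRACK-ATF4 KO, so that ATF4 KO 4 and 5 were again apart. Azgp1, Cyp2a5, Upp2, Fcamr, Hrg, Lipg and Neurog2 had log2 fold changes from -3.05 to -2.40. Among 14 genes that are higher in male kidneys 4 fell, including Cyp2e1 at -1.74, and 2 rose, beside 9.58% and 7.82% of all genes tested. Of the 14, 12 had a negative log2 fold change, with a median of -0.81. The 2 that rose, Cyp7b1 and Hsd11b1, were not called in 15 and 14 of the 23 other fits. No Y-linked gene was called.

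Other stress and signalling lists are given by their counts, beside 7.82% higher and 9.58% lower over all genes tested. NRF2 targets gave 3 of 14 higher and 1 lower, immediate early genes 3 of 15 higher and 1 lower, glucocorticoid-responsive genes 3 of 12 higher and 2 lower, and interferon and antigen presentation genes 1 of 22 lower. Gclc, the rate-limiting enzyme of glutathione synthesis, averaged 225 and 292 CPM (log2 fold change 0.38 ± 0.11, adjusted p = 0.039), and it was not called in 16 of the 23 other fits, with log2 fold changes from 0.16 to 0.59 over all of them. The antioxidant genes Nqo1 and Hmox1 were not called.

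The difference between this transgene effect and that in mice without the ATF4 knockout label was tested as an interaction over all 17 libraries. It was called for 3165 of 12938 genes (24.5%), 1423 upward and 1742 downward. The WT libraries had Xist and lacked the Y-linked genes, while the TRACK libraries had the Y-linked genes, so this contrast also holds a difference of sex. All 14 genes that are higher in male kidneys and all 4 Y-linked genes were called downward in it. All TRACK libraries were also kind B, while every WT library except WT 2 was kind A. The difference in the transgene effect cannot be told apart from that of sex or of library kind. The levels of a few genes, some alike and some unlike between the transgenic groups, are given beside it. They were chosen after their values were seen. With all libraries scaled together, Ndufa4l2 averaged 87.2 CPM in TRACK and 106 CPM in TRACK-ATF4 KO, Hk2 averaged 17.2 and 21.8 CPM, and Trib3 averaged 15.6 and 20.9 CPM. By contrast, Arntl averaged 3.13 CPM in TRACK, 17.3 CPM in TRACK-ATF4 KO and 3.55 CPM in ATF4 KO. In the same order Npas2 averaged 2.83, 18.5 and 2.43 CPM, and Dbp averaged 103, 11.6 and 115 CPM.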

How the data were processed

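Kidney cortex RNA was sequenced from 17 stranded mRNA libraries (TruSeq). According to the study's methods and the submitters' processing notes, the authors demultiplexed reads with bcl2fastq 2.20, used Cutadapt for trimming, STAR for alignment to GRCm38 and HTSeq for counting per gene, and deposited these raw counts in 1 table with no normalization. The annotation release and strand setting of the counting are not given in the sources used here, so overlapping and antisense genes are uncertain.

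Groups were taken from the genotype labels. Library sizes were scaled by TMM, CPM were computed on that scale, and the 9 libraries of both groups were fitted with the quasi-likelihood test of edgeR 4.0.16 (R 4.3.3) with Benjamini-Hochberg adjustment over all genes of any type with a mean CPM of at least 1 in either group. A gene was called at an adjusted p of at most 0.05. All adjusted p-values are from edgeR unless another tool is named, and values after ± are SE for log2 fold changes and SD over libraries (n = 5 and 4) for CPM. The test was also run on simulated counts, and the outcome of that run is not given here. Alternatives were DESeq2 1.42.0, RLE scaling, other minimum levels, the replicate number or library kind as a term, all 17 libraries in 1 fit, summed pairs and each library left out. Fits within a library kind, without ATF4 KO 4 and 5, without ATF4 KO 1 to 3 and with TRACK-ATF4 KO 2 and 3 summed were added after seeing the data.

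The comparison and the gene lists were chosen with earlier results of these data known. Named genes were the 12 largest increases and decreases without overlap, the called members with the smallest p in each list (up to 5 each way in the HIF, glycolysis and lipid and injury lists and up to 2 in the others), a fixed set of standard markers, and the genotype and sex checks. Some single genes are counted in their lists but not reported here by name. Further list members are named to describe their list and were chosen after their values were seen. Same-numbered libraries of both groups deviated together (correlations 0.370, 0.480, 0.480 and 0.369 for numbers 1 to 4). The replicate number was therefore fitted as a block in an alternative, while the main fit and its adjusted p-values held no such term. Each pair also shared its library kind, and libraries of the same kind with different numbers correlated at 0.0219 to 0.400, so number and kind cannot be told apart.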

Additional observations from a re-analysis of the deposited data

Results flagged for a closer look

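A library was set apart when its gap to the nearest library of its group was large against the range of the group (Dixon's criterion at 95%), and chance sets apart about 1 in 20 groups. Of 238 groups of values checked, 19 were set apart. In ATF4 KO the highest libraries, in CPM, were ATF4 KO 1 for Pfkp at 38.2, Muc2 at 0.0155 and Xist at 6.05, ATF4 KO 2 for Grin1 at 0.0662, ATF4 KO 3 for Ankrd37 at 1.21, and ATF4 KO 5 for Ly6f at 0.962, Ostn at 0.0175, Tsc22d3 at 79.7 and Pigr at 638. Xist was at or under 0.0749 CPM in ATF4 KO 2 to 5 and averaged 241 CPM in WT with all libraries scaled together, so ATF4 KO 1 had a low level of it beside Y-linked genes. In TRACK-ATF4 KO the highest libraries were TRACK-ATF4 KO 1 for Kdm5d at 16.6 and TRACK-ATF4 KO 2 for Osgin1 at 46.9. TRACK-ATF4 KO 4 was the highest for Cdkn1a at 74.9, Pzp at 13.7, Azgp1 at 42.0, Cyp2c23 at 26.4, Neurog2 at 0.558, Pgam2 at 33.7, Gclc at 325 and Plin2 at 257 CPM.

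The interaction contrast between libraries with and without the ATF4 knockout label was called for the genes below. They are those with the smallest interaction p-values and listed genes among them. The log2 difference of effects was 2.59 for Cyp2c23, 4.44 for Wdfy1, 4.36 for Gm10639 and 5.32 for Ly6f. It was -14.87 for Ddx3y, -14.05 for Eif2s3y, -4.14 for Per2, -2.37 for Tef and -3.97 for Ugt8a. The Y-linked values show the difference of sex within that contrast, which also holds a difference of library kind. A difference in the transgene effect cannot be told apart from either.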

How the results depend on the processing

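Of the counts of called genes and list members, 289 values under alternatives stayed within 1.5 times the reported count and 52 did not, and the cause was not tested unless fewer libraries entered the fit. With the replicate number as a block (pairing), 1694 genes rose and 2074 fell, 10 fatty acid oxidation genes fell and 12 lipid synthesis genes rose, and 2161 of the 2215 calls were shared. Library kind as a covariate gave 9 increased lipid synthesis genes. Within kind A 1556 genes rose, lipid synthesis gave 25 decreases and 14 increases, and 8 endothelial markers rose. Within kind B, with 5 libraries, 200 genes rose and 98 fell, and the counts were 15 for HIF targets, 1 for fatty acid oxidation (lower), 2 each way for lipid synthesis, 5 for injury, 5 lower and 3 higher for the clock, and 0 for proximal tubule and for endothelial markers. Without ATF4 KO 4 and 5, 1671 genes rose, lipid synthesis gave 26 decreases and 15 increases, and 8 endothelial markers rose. Without ATF4 KO 1 to 3, 27 fatty acid oxidation genes fell, 3 clock genes rose and 1 endothelial marker rose. With TRACK-ATF4 KO 2 and 3 summed, 3 lipid synthesis genes and 1 endothelial marker rose. With both pairs summed, 526 genes rose and 573 fell, lipid synthesis gave 7 decreases and 3 increases, 3 clock genes rose and 0 endothelial markers rose. With ATF4 KO 2 and 3 summed 3 endothelial markers rose, and with no minimum level 2.

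Leaving out each library in turn gave 611 to 1032 increases and 753 to 1271 decreases, both lowest without TRACK-ATF4 KO 2. The ranges were 3 to 5 for increased lipid synthesis genes, 3 to 5 for increased clock genes and 1 to 5 for endothelial markers, and 27 to 34 for HIF targets, 16 to 19 for glycolysis, 12 to 15 for injury and 16 to 18 for ATF4 targets.

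Of the values for single named genes, 2475 kept direction and call, 195 lost the call, 27 gained it and 23 changed sign. Among those that changed sign only 3 were called: without ATF4 KO 1 to 3, Cyp4a14 was at -0.74, Plin2 at -0.74 and Spp1 at 0.42 on the log2 scale. Without ATF4 KO 4 and 5 Spp1 was called at -0.27. Plin2 was called higher in that fit and within kind A. The other sign changes were of genes called in neither fit. They were Xist at 0.61 with the block, Cpt1a at 0.20 within kind A and 0.20 without ATF4 KO 4 and 5, and, within kind B, Cyp4a14 at -0.12, Hif1a at -0.038, Plin2 at -0.19, Uty at 0.10 and Spp1 at 0.17. Without ATF4 KO 1 to 3 Hif1a was at -0.15 and Uty at 0.24, and with ATF4 KO 2 and 3 summed Spp1 was at 0.010. With each library left out, Kdm5d ranged from -0.012 to 0.14, Hif1a from -0.0239 to 0.10, Plin2 from -0.0140 to 0.64, Uty from -0.12 to 0.037 and Spp1 from -0.15 to 0.057. Libraries of 56495462 to 71364561 counts left genes such as Hk2 and Fgf21 with a few counts in single ATF4 KO libraries.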

Other observations

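Immunoglobulin genes, which are not protein-coding in the annotation and so were outside the comparison, took 0.119% ± 0.0297 (SD, n = 4) of counts in TRACK-ATF4 KO and 0.00709% ± 0.00339 (SD, n = 5) in ATF4 KO. The ratio was 16.8 (exact two-sided permutation test, p = 0.00794, the smallest the design allows, n = 4 and 5). Of the 109 immunoglobulin genes tested 96 rose and 0 fell, beside 1141 higher and 1260 lower of 13649 genes of all types. Genes under 1 CPM in ATF4 KO were tested only because they were higher in TRACK-ATF4 KO, which set their direction in advance. The count is therefore no separate support for the rise in share. The genes named here were chosen after their values were seen. Igha, the constant region of IgA, was at 38.2, 11.7, 9.31, 29.4 and 38.6 CPM in ATF4 KO and at 501, 368, 337 and 612 CPM in TRACK-ATF4 KO (log2 fold change 4.16 ± 0.44, edgeR adjusted p = 0.000139). Jchain, which joins IgA and IgM units, rose from 2.23 to 11.4 CPM in ATF4 KO to 105 to 185 CPM in TRACK-ATF4 KO, and the plasma cell chaperone Mzb1 rose from 0.653 ± 0.0974 to 2.35 ± 0.407 CPM. Pigr, the epithelial receptor that carries IgA across tubules, averaged 260 ± 217 CPM in ATF4 KO and 97.4 ± 9.24 CPM in TRACK-ATF4 KO (adjusted p = 0.0582).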
